A study of Canis lupus familiaris with 8 samples.

Results

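Monocytes and macrophages were followed through 39 genes that mark these cells, in dog maxillary alveolar bone, the part of the upper jaw that holds the tooth roots. The list was given by gene name, with earlier results of these data known, and each gene was read from the probe set (several short probes that report on 1 transcript) annotated to that gene alone, taking the one with the highest mean where there were several. By this rule 34 of the 39 genes were measured, among 15947 genes in all. They comprised 7 of 7 genes of pan-myeloid identity, 6 of 7 genes of inflammatory monocytes and activation, 9 of 13 genes of resident and scavenging macrophages, and 12 of 12 genes of lipid handling and the lysosome. The 5 genes without such a probe set were HAVCR2, FOLR2, TIMD4, C1QA and C1QB.

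Total RNA from 8 samples was hybridised to Affymetrix whole-transcript arrays, with 2 arrays in each of 4 groups. Group DT6 was tissue regenerated in a surgical defect, with the bone next to it, at 6 weeks after surgery and with protraction (forward movement) of a tooth. Groups D6 and D2 were the same kind of tissue without protraction, at 6 and 2 weeks. Group C was sound bone around maxillary premolar roots. The weeks were read from the group names. The defect samples therefore hold new tissue and older bone together, whereas C holds bone alone, and no label ties an array to an animal. The p-values reflect the variation among these 8 arrays alone, some of which may be technical.

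Monocytes enter wounded tissue from blood, drawn partly by the chemokine CCL2 through its receptor CCR2, and mature there into macrophages under the growth factor CSF1. Macrophages clear bacteria, dead cells and lipid-rich debris by phagocytosis and break them down in lysosomes, while resident macrophages carry scavenger and complement receptors. In bone the same lineage also gives rise to osteoclasts, the cells that resorb mineral, so that several lysosomal genes are shared by both cell types.

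The deposited probe set values are on a log scale, taken here as log2, and are compared between arrays for 1 gene but not between genes. Differences are log2 differences ± SE from limma over all 8 arrays, for 2 arrays against 2 unless stated. "Rose" and "fell" are used where the p-value adjusted by the Benjamini-Hochberg method over the 15947 genes was under 0.05.

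Some arrays carried RNA of other tissues, in amounts that differed between and within groups. Averaged over 12 stratified oral epithelium markers, D6 array 1 stood 3.81 and D2 array 2 stood 2.47 above the mean of C on the log2 scale, while the other 4 defect arrays lay between -0.28 and 0.22. Averaged over 11 airway and gland epithelium markers, DT6 stood at 4.25 and 4.12, D6 at 0.53 and -0.33 and D2 at 4.67 and 3.76. D6 array 2, the array with neither epithelium, had the macrophage genes at a mean of 0.94 above C, and D6 array 1 had them at 1.01. The 12 osteoclast markers averaged 0.80 and 1.64 above C in DT6, 1.18 and 0.98 in D6 and 0.30 and 0.63 in D2. The mean over 10 bone markers lay between -0.57 and 0.41 in all 6 defect arrays, but its members went both ways. Of the 10, the osteocyte gene MEPE fell in D6 (-1.61 ± 0.21, adjusted p 0.0125) and D2 (-2.29 ± 0.21, adjusted p 0.000601). SOST, also of osteocytes, fell in D2 (-1.33 ± 0.18, adjusted p 0.00356), and both fell for the mean of the 3 defect groups. The part of these tissues in the differences of the macrophage genes was not tested, apart from leaving out D2 array 2 and D6 array 1.

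Macrophage genes were higher in all defect groups than in sound bone. The mean over the 34 genes stood 0.47 and 1.08 above that of C in DT6, 1.01 and 0.94 in D6, and 0.91 and 1.00 in D2. More macrophages and more RNA per macrophage cannot be told apart in such whole-tissue RNA. In D2 against C 19 of the 34 genes (55.9%) rose, against 5.66% of all genes, and the median difference was 1.00, against -0.01 over all genes. In D6 against C 11 (32.4%) rose, against 0.985% of all genes, with a median of 1.04. In DT6 against C 7 (20.6%) rose, against 2.29% of all genes, with a median of 0.66. Taking the 3 defect groups as one mean against C, 21 genes (61.8%) rose, against 5.55% of all genes. None of the 34 fell in any of these 4 comparisons, which share the C arrays, whereas 0.746% of all genes fell in DT6, 0.771% in D6, 2.74% in D2 and 2.83% for the mean of the 3.

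Array by array, both arrays of the defect group lay above both C arrays for 23 genes in DT6 (22.1% of all genes did so), for 30 in D6 (25.8%) and for 30 in D2 (27.9%). All 6 defect arrays lay above both C arrays for 23 of the 34 genes, which held for 12.8% of all genes. C had the lowest group mean for 31 of the 34 genes. The exceptions were F13A1, lowest in D2, and MARCO and PLA2G7, lowest in DT6.

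How many genes passed depended on single arrays, although in D2 and D6 the median difference changed little. In D2 against C it was 3 when either C array was left out and 4 when either D2 array was, while the median difference stayed between 0.95 and 1.10. In D6 against C it was 0 without C array 1 (limma, with 21 genes at an unadjusted p under 0.05) and 1 without C array 2. Leaving out D6 array 1 gave 1, D6 array 2 gave 4, either D2 array gave 5 and either DT6 array gave 23, with medians of 0.94 to 1.15. In DT6 against C it was 1 without C array 1, 3 without C array 2 and 20 without DT6 array 1, and here the median also moved, between 0.38 and 1.07. The mean of the 3 defect groups gave 2 genes without C array 1 and 4 without C array 2. Only GPNMB and SLC11A1 in D2, and GPNMB in DT6 and in the mean of the defect groups, passed in every such fit. Without D2 array 2 and D6 array 1, the count was 4 in D2, 1 in D6 and 16 for the mean of the defect groups. Every other call of a macrophage gene ended in at least 1 fit that left out an array.

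**Figure D1:**
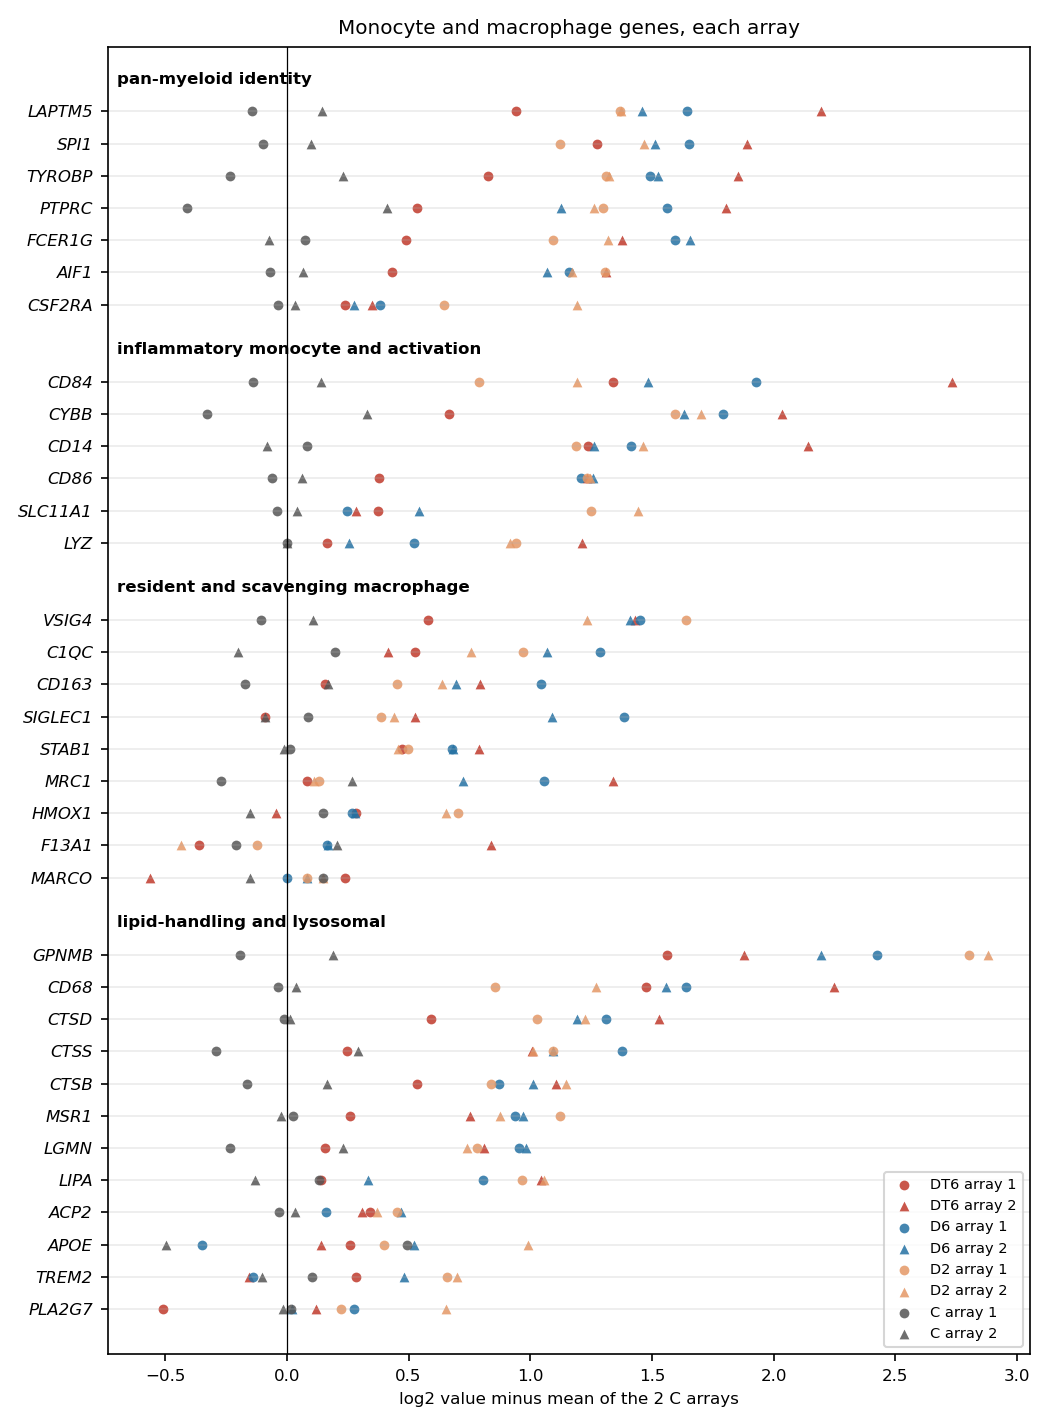
Points show the log2 difference of each of the 34 measured genes from its own mean in C, with the genes grouped by role. Colours mark the groups, with circles for array 1 and triangles for array 2. Most genes are above C in all 6 defect arrays, DT6 array 1 is mostly lower than DT6 array 2, and GPNMB has the largest differences in D2.

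The pan-myeloid genes, which mark the whole lineage, were higher in every defect array. Both arrays of every defect group lay above both C arrays for all 7, which held for 12.8% of all genes. In DT6 3 of the 7 rose (2.29% of all genes did), in D6 3 (0.985%) and in D2 6 (5.66%). SPI1 encodes PU.1, the transcription factor that sets myeloid identity. It had 8.56 and 9.18 in DT6, 8.94 and 8.80 in D6 and 8.41 and 8.76 in D2, against 7.19 and 7.39 in C. Every defect array exceeded both C arrays by more than 1 log2 unit. SPI1 rose by 1.58 ± 0.21 in DT6 (adjusted p 0.00566), by 1.58 ± 0.21 in D6 (adjusted p 0.0154) and by 1.30 ± 0.21 in D2 (adjusted p 0.00870).

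TYROBP and FCER1G encode the adaptor proteins DAP12 and the Fc receptor gamma chain, which signal for many myeloid receptors. TYROBP had 7.71 and 8.74 in DT6, 8.38 and 8.41 in D6 and 8.20 and 8.21 in D2, against 6.65 and 7.12 in C. The D6 and D2 replicates were nearly equal, while the DT6 arrays lay on either side of them. TYROBP rose in DT6 (1.34 ± 0.29, adjusted p 0.0477), in D6 (1.51 ± 0.29, adjusted p 0.0426) and in D2 (1.32 ± 0.29, adjusted p 0.0286). FCER1G had 6.98 and 7.87 in DT6, 8.08 and 8.15 in D6 and 7.58 and 7.81 in D2, against 6.57 and 6.42 in C. It was highest in both D6 arrays and did not overlap with DT6. FCER1G rose in D6 (1.62 ± 0.25, adjusted p 0.0209) and D2 (1.20 ± 0.25, adjusted p 0.0228), while DT6 gave 0.93 ± 0.25 (adjusted p 0.0951).

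LAPTM5, a lysosomal membrane protein of blood-forming cells, had 9.09 and 10.34 in DT6, 9.79 and 9.60 in D6 and 9.51 and 9.52 in D2, against 8.0 and 8.29 in C. The DT6 arrays held both the lowest and the highest value among the defect arrays. LAPTM5 rose in DT6 (1.57 ± 0.33, adjusted p 0.0412) and D2 (1.37 ± 0.33, adjusted p 0.0386), and D6 gave 1.55 ± 0.33 (adjusted p 0.0577). AIF1, a calcium-binding protein of the macrophage cytoskeleton, rose in D2 (1.24 ± 0.25, adjusted p 0.0206) and not in D6 (1.11 ± 0.25, adjusted p 0.0678) or DT6 (0.87 ± 0.25, adjusted p 0.116). PTPRC, which encodes the leukocyte phosphatase CD45, passed only for the mean of the 3 defect groups (1.26 ± 0.32, adjusted p 0.0445), a call that ended without C array 1, where its difference was 0.85. The spread of PTPRC in C was wide, at 6.51 and 7.33. CSF2RA, the receptor chain for the growth factor GM-CSF, had 5.67 and 5.78 in DT6, 5.81 and 5.70 in D6 and 6.07 and 6.62 in D2, against 5.39 and 5.46 in C. It rose in D2 (0.92 ± 0.20, adjusted p 0.0245), where its difference was 0.65 without D2 array 2.

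Genes of inflammatory monocytes and of activation also stood above C in every defect array. Of the 6 measured, 2 rose in DT6 (2.29% of all genes did), 2 in D6 (0.985%) and 4 in D2 (5.66%). CD14, the co-receptor through which monocytes sense bacterial lipopolysaccharide, had 8.84 and 9.74 in DT6, 9.02 and 8.86 in D6 and 8.79 and 9.06 in D2, against 7.68 and 7.52 in C. All 6 defect arrays lay more than 1 log2 unit above C. CD14 rose by 1.69 ± 0.26 in DT6 (3.22-fold, adjusted p 0.0110), by 1.34 ± 0.26 in D6 (2.53-fold, adjusted p 0.0419) and by 1.33 ± 0.26 in D2 (2.51-fold, adjusted p 0.0175).

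CD86, which gives T cells a costimulatory signal, had 6.54 and 7.39 in DT6, 7.36 and 7.41 in D6 and 7.39 and 7.40 in D2, against 6.10 and 6.22 in C. Of the 6 defect arrays 5 lay within 0.1 of each other, and DT6 array 1 lay below them. CD86 rose in D6 (1.23 ± 0.24, adjusted p 0.0434) and D2 (1.24 ± 0.24, adjusted p 0.0173), and DT6 gave 0.81 ± 0.24 (adjusted p 0.124). CYBB, the catalytic subunit of the phagocyte NADPH oxidase, had 7.16 and 8.53 in DT6, 8.29 and 8.13 in D6 and 8.09 and 8.20 in D2, against 6.17 and 6.83 in C. It rose in D2 (1.65 ± 0.38, adjusted p 0.0335), with 1.71 ± 0.38 (adjusted p 0.0648) in D6 and 1.35 ± 0.38 (adjusted p 0.109) in DT6.

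CD84, a self-binding receptor of the SLAM family, had its highest mean in DT6, at 8.16 and 9.55, with 8.74 and 8.30 in D6 and 7.60 and 8.01 in D2, against 6.68 and 6.96 in C. It rose in DT6 (2.04 ± 0.38, 4.10-fold, adjusted p 0.0291), with 1.71 ± 0.38 (adjusted p 0.0661) in D6 and 0.99 ± 0.38 (adjusted p 0.156) in D2. The difference in DT6 was 1.34 without DT6 array 2. LYZ, lysozyme, did not pass in any comparison. LYZ had 11.20 and 12.24 in DT6, 11.55 and 11.29 in D6 and 11.97 and 11.95 in D2, against 11.03 and 11.03 in C. Glands of the airway also make lysozyme, and the airway and gland markers were high in DT6 and D2. The part of those glands in LYZ was not tested.

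SLC11A1 was the single activation gene past the threshold between 6 and 2 weeks. It encodes the metal transporter NRAMP1, which acts in the membrane of phagosomes. SLC11A1 had 6.15 and 6.06 in DT6, 6.02 and 6.32 in D6 and 7.02 and 7.22 in D2, against 5.73 and 5.82 in C. Both D2 arrays lay above all other arrays. It rose in D2 (1.35 ± 0.16, 2.54-fold, adjusted p 0.00243), while the differences were 0.39 ± 0.16 (adjusted p 0.266) in D6 and 0.33 ± 0.16 (adjusted p 0.342) in DT6. In D6 against D2 it fell by 0.95 ± 0.16 on the log2 scale (adjusted p 0.0204). That call ended without D2 array 1, D2 array 2 or D6 array 1, with differences of -1.10 to -0.80 in all fits that left out 1 array. Neutrophils also express SLC11A1. The 9 neutrophil markers averaged 0.85 and 0.56 above C in DT6, 1.85 and 0.07 in D6 and 1.22 and 2.04 in D2, and 6 of them had both D2 arrays above both C arrays (27.9% of all genes did so). S100A8, a calcium-binding protein abundant in neutrophils and in stratified epithelium, had 5.29 and 4.70 in DT6, 10.13 and 4.17 in D6 and 6.08 and 8.91 in D2, against 3.50 and 3.94 in C. S100A12 and S100A9 likewise had both D2 arrays above both C arrays. S100A8 was highest in D6 array 1 and D2 array 2, the arrays rich in oral epithelium. Of the 9 markers 1 rose in D2 (5.66% of all genes did), the lactoferrin gene LTF, which airway glands also express. The receptor gene CSF3R overlapped between D2 and C. The part of neutrophils in SLC11A1 was not tested.

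Resident and scavenging macrophage genes were the least uniform group. Of the 9 measured, 0 rose in DT6, against 2.29% of all genes. There 3 had an unadjusted p under 0.05 in limma, as had 17.6% of all genes. In D6 3 rose (0.985% of all genes did) and in D2 3 (5.66%). VSIG4, a complement receptor of tissue macrophages, had 8.21 and 9.06 in DT6, 9.08 and 9.04 in D6 and 9.26 and 8.86 in D2, against 7.52 and 7.73 in C. Only DT6 array 1 lay clearly below the other defect arrays. VSIG4 rose in D6 (1.43 ± 0.26, 2.70-fold, adjusted p 0.0331) and D2 (1.43 ± 0.26, 2.70-fold, adjusted p 0.0128), and DT6 gave 1.01 ± 0.26 (adjusted p 0.0819). C1QC, a chain of the complement component C1q that macrophages secrete, had 8.14 and 8.03 in DT6, 8.90 and 8.68 in D6 and 8.58 and 8.37 in D2, against 7.82 and 7.42 in C. The groups did not overlap, and D6 was highest. C1QC rose in D6 (1.18 ± 0.17, adjusted p 0.0183) and D2 (0.86 ± 0.17, adjusted p 0.0175), and DT6 gave 0.47 ± 0.17 (adjusted p 0.192).

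SIGLEC1, the sialic acid receptor sialoadhesin, was high in D6. It had 5.39 and 6.00 in DT6, 6.86 and 6.56 in D6 and 5.86 and 5.91 in D2, against 5.56 and 5.39 in C. Both D6 arrays lay above every other array, and DT6 overlapped with C. SIGLEC1 rose in D6 against C (1.24 ± 0.22, adjusted p 0.0315). Against D2 the difference of D6 was 0.82 ± 0.22 (adjusted p 0.172), and that of DT6 against D6 was -1.02 ± 0.22 (adjusted p 0.0755). HMOX1, the haem-degrading enzyme haem oxygenase 1, had 7.15 and 6.82 in DT6, 7.14 and 7.15 in D6 and 7.57 and 7.52 in D2, against 7.02 and 6.72 in C. HMOX1 rose in D2 (0.68 ± 0.16, adjusted p 0.0386), and its DT6 arrays overlapped with C.

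CD163, which takes up haemoglobin bound to haptoglobin, had 6.57 and 7.20 in DT6, 7.45 and 7.10 in D6 and 6.86 and 7.05 in D2, against 6.24 and 6.58 in C, and passed in no comparison. MRC1, the mannose receptor, had 7.91 and 9.16 in DT6, 8.88 and 8.55 in D6 and 7.96 and 7.94 in D2, against 7.56 and 8.09 in C. MRC1 in D2 lay within the range of C, while both D6 arrays lay above it. STAB1, the scavenger receptor stabilin 1, differed by 0.63 ± 0.14 in DT6 (adjusted p 0.0552), by 0.68 ± 0.14 in D6 (adjusted p 0.0565) and by 0.48 ± 0.14 in D2 (adjusted p 0.0775). STAB1 passed for the mean of the 3 defect groups (0.60 ± 0.12, adjusted p 0.0188).

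F13A1 and MARCO did not follow the rest. F13A1, the A subunit of coagulation factor XIII and a gene of tissue macrophages, had 7.87 and 9.07 in DT6, 8.40 and 8.40 in D6 and 8.11 and 7.80 in D2, against 8.03 and 8.44 in C. Each defect group overlapped with C. MARCO, a scavenger receptor for bacteria, had 5.74 and 4.94 in DT6, 5.50 and 5.59 in D6 and 5.58 and 5.65 in D2, against 5.65 and 5.35 in C. MARCO was the single measured gene of the 34 whose mean level was under 5.52, the lower quartile of all genes.

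Lipid-handling and lysosomal genes included the largest difference of the set. Of the 12, 2 rose in DT6 (2.29% of all genes did), 3 in D6 (0.985%) and 6 in D2 (5.66%). GPNMB, a glycoprotein of the lysosome and cell surface in macrophages that take up lipid and debris, had 9.41 and 9.72 in DT6, 10.27 and 10.04 in D6 and 10.65 and 10.73 in D2, against 7.65 and 8.04 in C. The groups did not overlap, with D2 highest, then D6, then DT6. GPNMB rose by 1.72 ± 0.18 in DT6 (3.29-fold, adjusted p 0.00148), by 2.31 ± 0.18 in D6 (4.96-fold, adjusted p 0.00465) and by 2.84 ± 0.18 in D2 (7.17-fold, adjusted p 0.000138). Ranked by difference among all 15947 genes it was number 135 in DT6, 19 in D6 and 50 in D2. The neighbouring groups did not differ past the threshold, with -0.53 ± 0.18 for D6 against D2 (adjusted p 0.351) and -0.59 ± 0.18 for DT6 against D6 (adjusted p 0.299). The call in D6 ended without C array 1 (adjusted p 0.0895). Osteoclasts and osteoblasts express GPNMB as well. The osteoclast markers averaged 0.80 and 1.64 above C in DT6, 1.18 and 0.98 in D6 and 0.30 and 0.63 in D2. The bone markers averaged 0.41 and -0.52 in DT6, -0.30 and 0.25 in D6 and -0.47 and -0.57 in D2. Their medians were 0.45 and -0.37 in DT6, 0.06 and 0.51 in D6 and 0.18 and 0.13 in D2. In D2 against C 6 of the 10 bone markers had a difference above 0 and 4 below. DMP1 was far below, with 6.40 and 6.89 in D2 against 9.63 and 11.62 in C, while the osteoblast gene ALPL had 11.16 and 10.87 against 10.14 and 10.23. The part of these cells in GPNMB was not tested.

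CD68, a lysosomal membrane glycoprotein of macrophages and osteoclasts, ran in the other order. It had 9.66 and 10.43 in DT6, 9.82 and 9.74 in D6 and 9.04 and 9.45 in D2, against 8.14 and 8.22 in C. All 6 defect arrays lay above C, and both D6 arrays lay above both D2 arrays. CD68 rose by 1.86 ± 0.24 in DT6 (3.63-fold, adjusted p 0.00460), by 1.60 ± 0.24 in D6 (3.03-fold, adjusted p 0.0209) and by 1.06 ± 0.24 in D2 (2.09-fold, adjusted p 0.0303). ACP5, the tartrate-resistant phosphatase of osteoclasts, had 10.92 and 11.69 in DT6, 11.50 and 11.01 in D6 and 9.91 and 10.59 in D2, against 8.89 and 9.48 in C. Its defect groups stood in the same order of means as those of CD68. The part of osteoclasts in CD68 was not tested.

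MSR1, the class A scavenger receptor for modified lipoprotein, had 6.88 and 7.37 in DT6, 7.56 and 7.59 in D6 and 7.74 and 7.50 in D2, against 6.64 and 6.60 in C. Every defect array exceeded C, with DT6 array 1 nearest to it. MSR1 rose in D6 (0.95 ± 0.18, adjusted p 0.0375) and D2 (1.00 ± 0.18, adjusted p 0.0129), and DT6 gave 0.50 ± 0.18 (adjusted p 0.191). The lysosomal proteases CTSS, CTSB and CTSD each rose in D2, by 1.05 ± 0.26 (adjusted p 0.0440), 0.99 ± 0.21 (adjusted p 0.0245) and 1.13 ± 0.26 (adjusted p 0.0317). In D6 their differences were as large, at 0.94 to 1.25, with adjusted p-values of 0.0518 to 0.0661, and in DT6 they were 0.63 to 1.06. LGMN, the lysosomal protease legumain, passed only for the mean of the 3 defect groups (0.74 ± 0.18, adjusted p 0.0414). LIPA, the acid lipase that frees cholesterol in lysosomes, differed by 0.59 ± 0.28 in DT6, 0.57 ± 0.28 in D6 and 1.01 ± 0.28 in D2 (adjusted p 0.0579), and did not pass.

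Of the remaining lipid-handling genes none passed in any comparison. TREM2, a lipid-sensing receptor that signals through TYROBP, had 6.68 and 6.24 in DT6, 6.26 and 6.88 in D6 and 7.05 and 7.10 in D2, against 6.50 and 6.29 in C. Both D2 arrays lay above all others, but the difference of 0.68 ± 0.23 did not pass (adjusted p 0.109). A second and dimmer probe set for TREM2 had 5.79 and 5.51 in DT6, 5.84 and 5.88 in D6 and 5.72 and 5.99 in D2, against 6.02 and 5.78 in C, and showed no such separation. APOE, the main lipid carrier secreted by macrophages, had 9.03 and 8.91 in DT6, 8.42 and 9.29 in D6 and 9.17 and 9.76 in D2, against 9.27 and 8.28 in C. The C arrays of APOE differed by 0.99, more than any of its group differences. PLA2G7, the phospholipase that inactivates platelet-activating factor, differed by -0.19 ± 0.22 in DT6, 0.15 ± 0.22 in D6 and 0.44 ± 0.22 in D2. ACP2, a lysosomal acid phosphatase, differed by 0.32 ± 0.14 in DT6, 0.31 ± 0.14 in D6 and 0.41 ± 0.14 in D2.

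**Figure D2:**
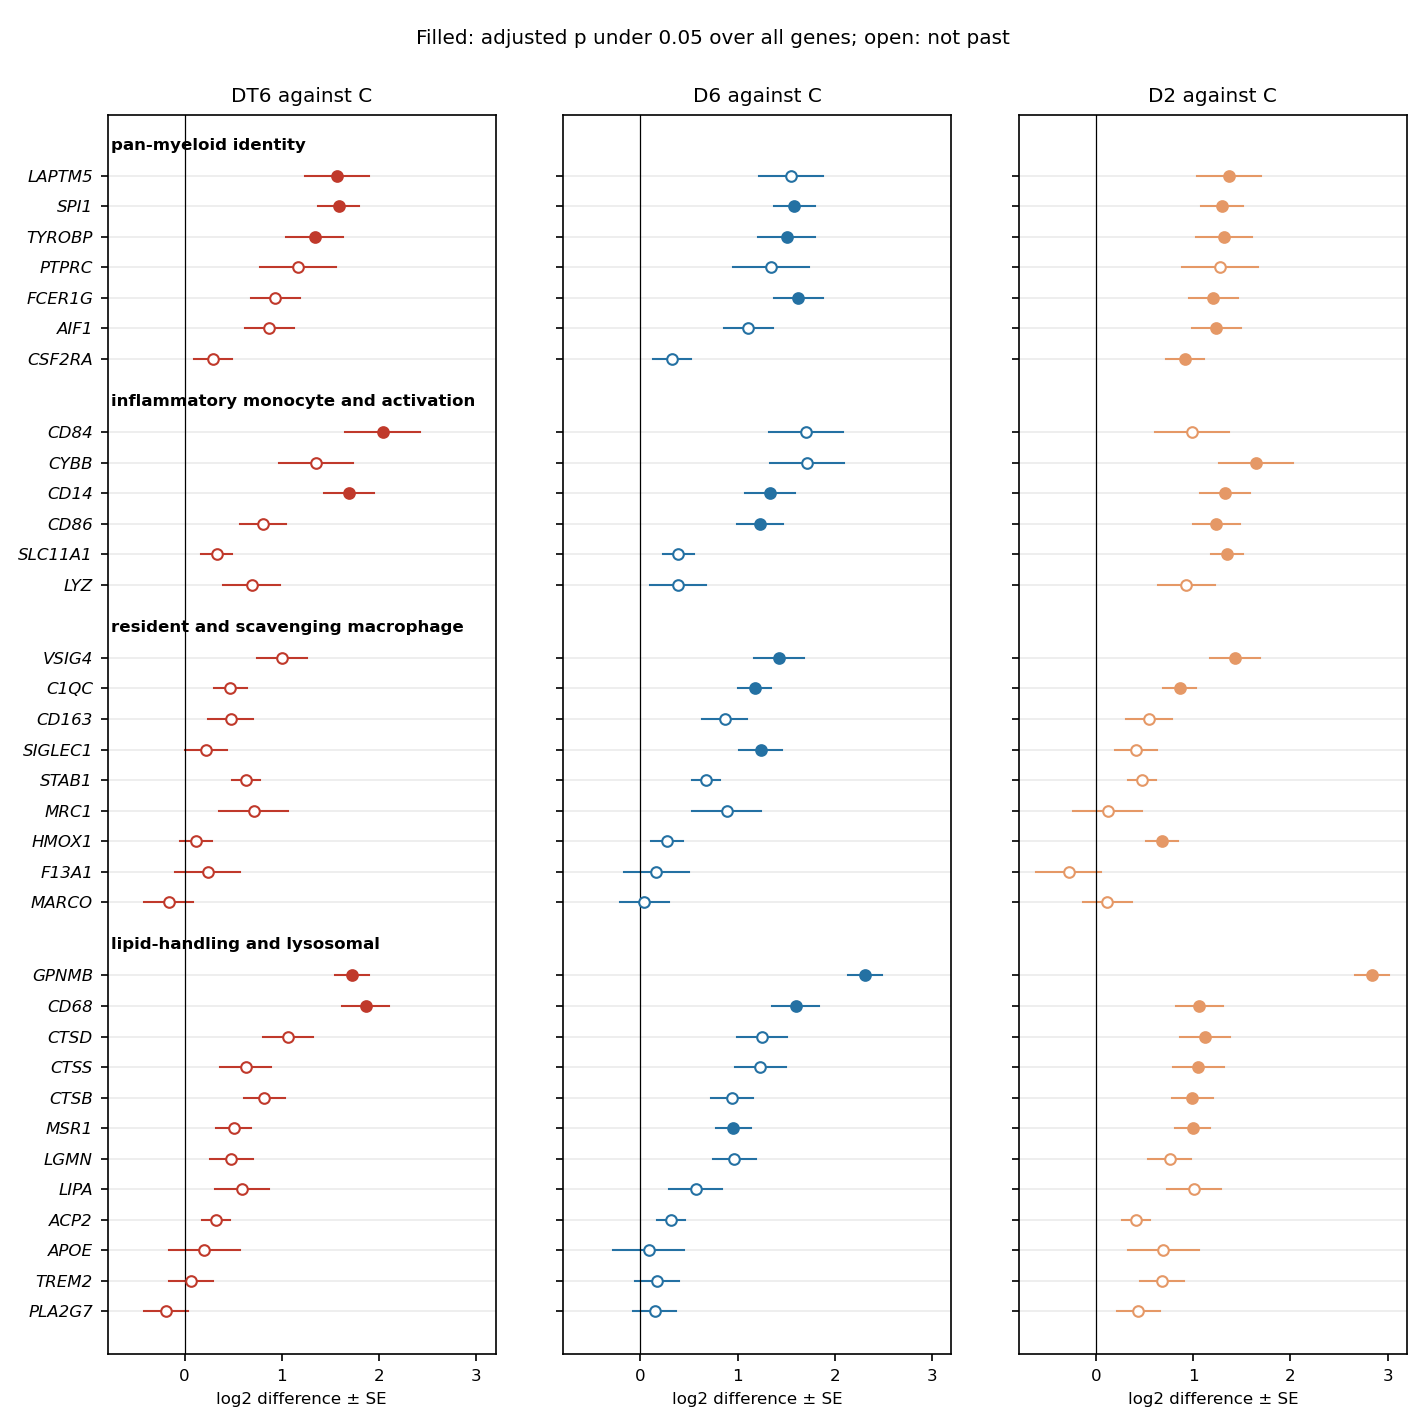
Log2 difference from C of each of the 34 measured genes, for DT6, D6 and D2 (points), with bars of ± SE from limma. Filled points mark genes that passed the threshold, and GPNMB lies farthest to the right in D6 and D2.

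The comparison of D6 with D2 sets 6 weeks against 2 weeks after surgery. These groups also differed in airway and gland markers, which averaged 0.53 and -0.33 above C in D6, against 4.67 and 3.76 in D2. Time and this difference in tissue cannot be told apart here. Of the 34 genes 1 fell (2.94%), SLC11A1, against 1.47% of all genes, and 0 rose, against 0.213% of all genes. At an unadjusted p under 0.05 in limma there were 5, of which 1 was higher and 4 lower in D6, or 14.7% against 7.88% of all genes. The median difference was 0.04, against 0.02 over all genes. Both D6 arrays lay above both D2 arrays for 14 genes (41.2%, against 23.5% of all genes) and below them for 8 (23.5%, against 19.8%).

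Among the resident and scavenging genes, 6 of 9 had both D6 arrays above both D2 arrays, against 23.5% of all genes. They were CD163, MRC1, STAB1, F13A1, SIGLEC1 and C1QC, and the median difference of the 9 was 0.31. The differences of MRC1 and F13A1 were 0.77 ± 0.35 (adjusted p 0.667) and 0.45 ± 0.33 (adjusted p 0.924). HMOX1 lay the other way, at -0.40 ± 0.16 (adjusted p 0.553). Among the 12 lipid-handling and lysosomal genes the median was -0.07. Of these 3 (25%) had both D6 arrays below both D2 arrays, namely GPNMB, TREM2 and LIPA, near the 19.8% of all genes. CD68, LGMN and CTSS (25%) had both D6 arrays above both D2 arrays, near the 23.5% of all genes. CD68 gave 0.54 ± 0.24 (adjusted p 0.645). CSF2RA gave -0.59 ± 0.20 (adjusted p 0.357), with 2 of 2 D6 arrays below both D2 arrays. By group mean, D2 was the highest of the 4 groups for 8 of the 12 lipid-handling and lysosomal genes, and D6 for 5 of the 9 resident and scavenging genes. Whether the roles differed from each other was not tested.

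The comparison of DT6 with D6 sets tissue with tooth protraction against tissue without it at 6 weeks. These groups also differed in airway and gland markers, which averaged 4.25 and 4.12 above C in DT6, against 0.53 and -0.33 in D6. Protraction and this difference in tissue cannot be told apart here. None of the 34 genes passed, against 1.52% of all genes in either direction, and 6 had an unadjusted p under 0.05 in limma (17.6%, against 6.52% of all genes), all lower in DT6. The median difference was -0.17, against -0.02 over all genes. Both DT6 arrays lay below both D6 arrays for 7 genes (20.6%, against 15.4% of all genes), namely FCER1G, SIGLEC1, C1QC, GPNMB, MSR1, LGMN and CTSS. Both lay above for 0 genes, against 13.6% of all genes. The 2 with the smallest p-values were SIGLEC1 (-1.02 ± 0.22, adjusted p 0.0755) and C1QC (-0.71 ± 0.17, adjusted p 0.118). FCER1G gave -0.69 ± 0.25 (adjusted p 0.537).

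The precision of this comparison was limited. The fit pooled the spread of each gene over the 4 groups, so the intervals do not measure the spread of DT6 alone. The median absolute difference between replicates over the 34 genes was 0.76 in DT6, 0.16 in D6, 0.12 in D2 and 0.24 in C. The 95% confidence interval of DT6 minus D6 ran from -0.48 to 0.48 for SPI1, from -0.23 to 0.94 for CD14 and from -0.28 to 0.81 for CD68. Intervals of this width leave differences of up to about 1 log2 unit undetected. Without DT6 array 2, FCER1G (-1.14, adjusted p 0.0216) and SIGLEC1 (-1.33, adjusted p 0.0252) were lower in DT6 past the threshold. Without DT6 array 1 the count was 0.

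**Figure D3:**
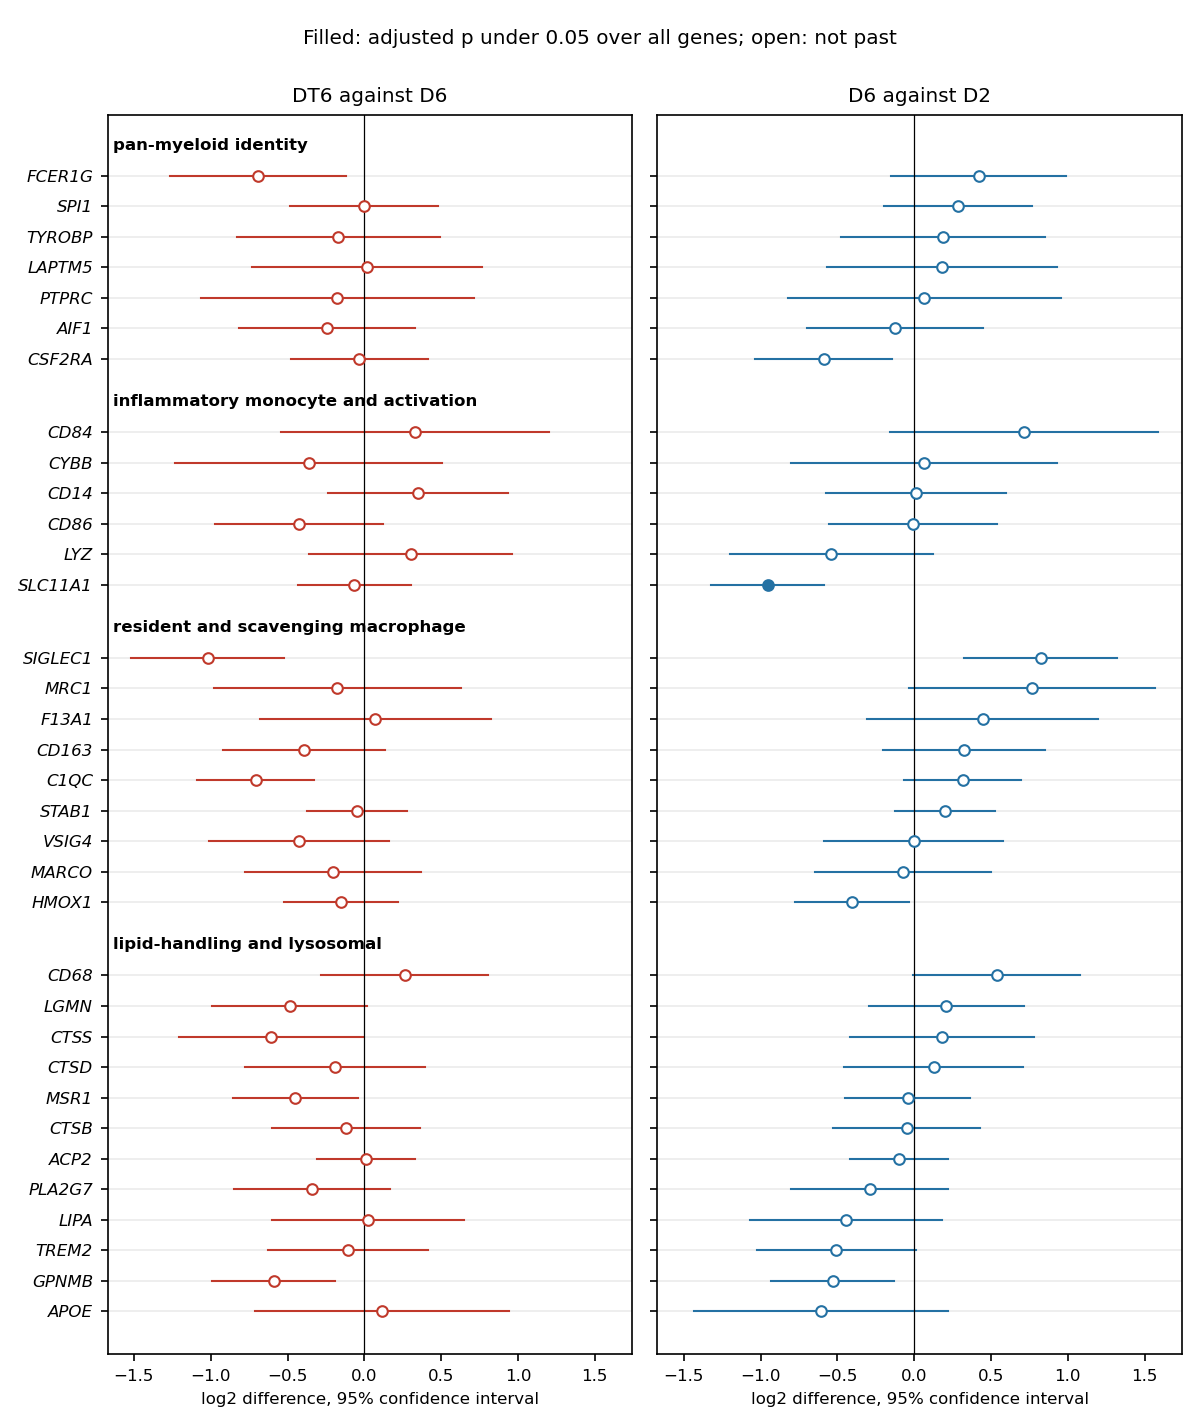
Log2 difference of each of the 34 measured genes for DT6 against D6 and for D6 against D2, with 95% confidence intervals from limma and genes grouped by role. SLC11A1 in D6 against D2 is the single gene past the threshold, and SIGLEC1 is lowest in DT6 against D6.

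The DT6 arrays differed from each other across the macrophage genes. DT6 array 2 was higher than array 1 for 27 of the 34 genes (79.4%), by a median of 0.71, whereas the median over all genes was 0.01. The replicate difference had a median of -0.10 in D6, 0.05 in D2 and 0.08 in C. DT6 array 1 was the lowest of the 6 defect arrays for 21 genes, and DT6 array 2 the highest for 14. All 7 pan-myeloid genes were higher in array 2. C1QC, TREM2, APOE, MARCO, HMOX1, SLC11A1 and ACP2 were the 7 genes higher in array 1. Fits without 1 DT6 array gave TYROBP 0.83 to 1.85 above C and LAPTM5 0.94 to 2.19.

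Other tissue markers also differed between the DT6 arrays. The 8 measured lymphocyte markers averaged 0.18 above C in array 1 and 1.21 in array 2, and the 12 osteoclast markers 0.80 and 1.64. DMP1, a gene of osteocytes, had 12.25 and 6.23 in DT6, 6.82 and 11.84 in D6 and 6.40 and 6.89 in D2, against 9.63 and 11.62 in C. Array 1 of DT6 was therefore rich in DMP1 and array 2 poor in it, but the 10 bone markers did not all follow DMP1. In DT6 3 of the 10 were higher in array 2, among them MEPE, at 10.03 in array 1 and 10.14 in array 2. In D6 6 of the 10 were higher in array 2, but MEPE was lower there, at 9.67 in array 1 and 9.13 in array 2. The macrophage genes averaged 0.47 and 1.08 above C in arrays 1 and 2 of DT6, and 1.01 and 0.94 in those of D6. The part of the tissue mix in the DT6 spread was not tested.

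**Figure D4:**
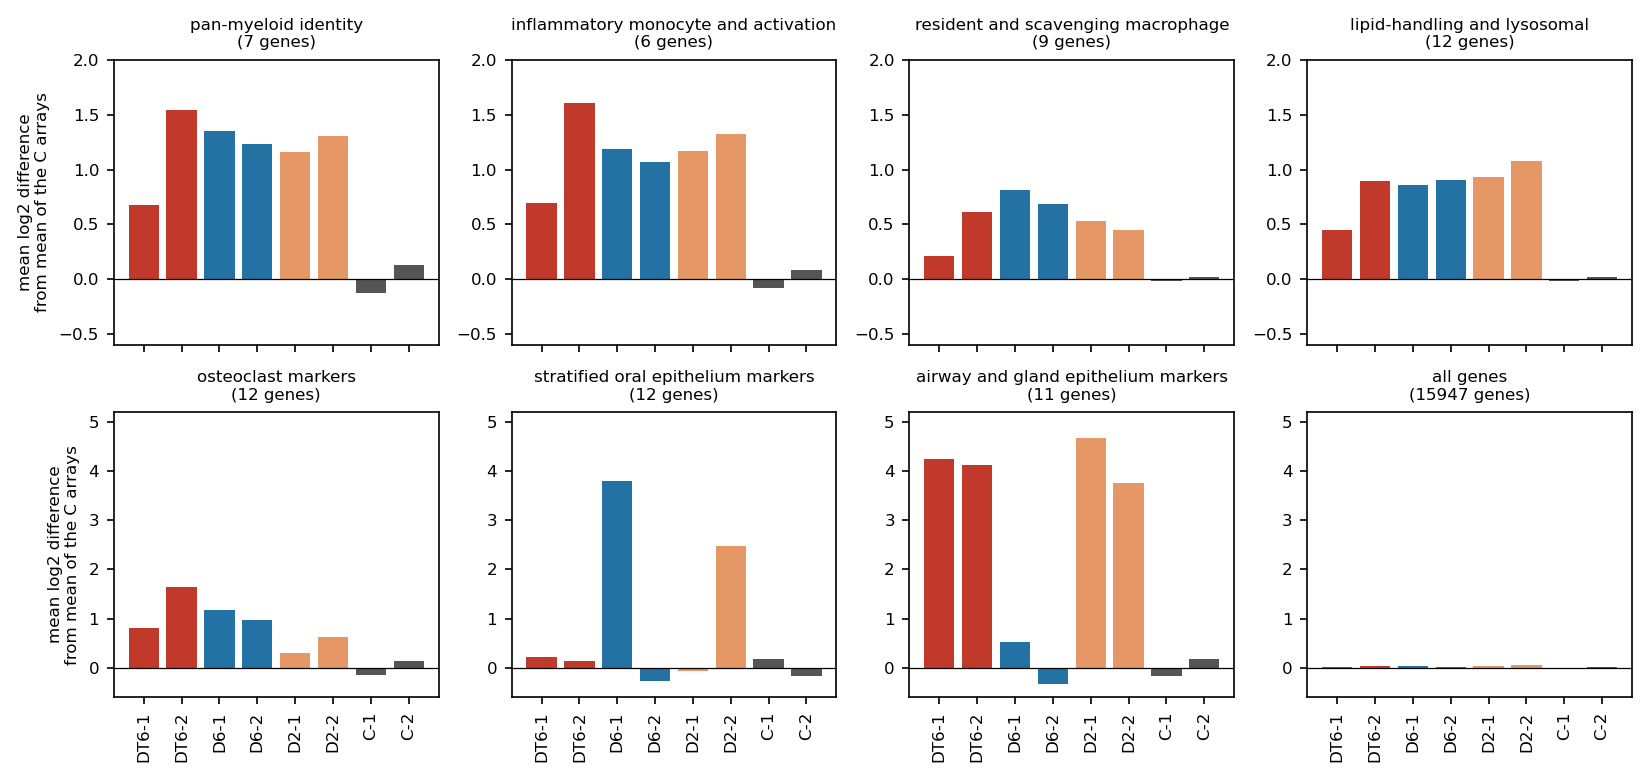
Mean log2 difference from C of the macrophage genes by role, of the osteoclast, oral epithelium and airway markers and of all genes. Each bar is 1 array, with DT6 to the left of D6, D2 and C. The macrophage genes lie above C in all defect arrays, while the oral epithelium markers are high in D6 array 1 and D2 array 2 and the airway markers in DT6 and D2.

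Other genes of macrophages were also higher in the defect groups. From a list of 32 further macrophage genes, 27 were measured. Of these 5 rose in DT6 (2.29% of all genes did), 6 in D6 (0.985%), 9 in D2 (5.66%) and 11 for the mean of the 3 defect groups (5.55%). None fell, against 0.746% of all genes in DT6, 0.771% in D6, 2.74% in D2 and 2.83% for the mean. Their median differences from C were 0.62 in DT6, 0.51 in D6 and 0.61 in D2. CSF1R, the receptor for CSF1, had 8.80 and 9.80 in DT6, 9.27 and 9.20 in D6 and 8.67 and 8.85 in D2, against 7.86 and 7.87 in C. All defect arrays were above C, and CSF1R rose in DT6 (1.43 ± 0.27, adjusted p 0.0286) and D6 (1.37 ± 0.27, adjusted p 0.0436).

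CCL2 had 6.63 and 7.79 in DT6, 7.55 and 7.53 in D6 and 8.03 and 8.36 in D2, against 6.58 and 6.61 in C. It was highest in D2, where it rose (1.60 ± 0.31, 3.04-fold, adjusted p 0.0176). Its receptor gene CCR2 had 6.49 and 7.72 in DT6, 6.89 and 7.01 in D6 and 7.21 and 7.33 in D2, against 6.07 and 5.78 in C. CCR2 rose for the mean of the 3 defect groups (1.18 ± 0.27, adjusted p 0.0310), and its results in the single groups are not given here. CX3CR1, the fractalkine receptor of patrolling monocytes and resident macrophages, had 6.94 and 7.05 in DT6, 6.77 and 7.06 in D6 and 7.75 and 7.44 in D2, against 5.85 and 6.18 in C. It rose in DT6 (0.98 ± 0.18, adjusted p 0.0283) and D2 (1.58 ± 0.18, adjusted p 0.00192). Both D6 arrays also lay above both C arrays, and the test result of CX3CR1 in D6 is not given here. CD74, the chaperone of class II antigen presentation, rose in DT6 (1.27 ± 0.20), D6 (1.59 ± 0.20) and D2 (1.72 ± 0.20), with adjusted p-values of 0.0129, 0.0121 and 0.00203.

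Of 16 inflammatory mediators of macrophages measured, 0 rose in DT6 (2.29% of all genes did), 0 in D6 (0.985%) and 3 in D2 (5.66%). An unadjusted p under 0.05 in limma was reached by 3 in DT6 (17.6% of all genes) and by 4 in D6 (16.4% of all genes). The genes that rose in D2 were MMP12, the macrophage elastase (3.31 ± 0.83, adjusted p 0.0432), IL18 (1.74 ± 0.35, adjusted p 0.0202) and the neutrophil chemokine CXCL8 (1.53 ± 0.40, adjusted p 0.0495). MMP12 had 4.96 and 4.45 in DT6, 4.99 and 5.07 in D6 and 5.46 and 8.65 in D2, against 3.18 and 4.30 in C, so that the D2 arrays lay far apart, and the higher one was D2 array 2, rich in oral epithelium transcripts. CXCL8 was likewise higher in that array, at 8.19 against 6.74 in D2 array 1. IL1B and TNF, the classical cytokines of activated macrophages, passed in no comparison. IL1B had 4.20 and 4.58 in DT6, 4.36 and 4.18 in D6 and 4.30 and 4.81 in D2, against 4.55 and 4.33 in C, and every defect group overlapped with C. TNF had 4.99 and 4.92 in DT6, 5.01 and 5.22 in D6 and 5.15 and 5.09 in D2, against 4.99 and 4.39 in C. Its D6 and D2 arrays lay above both C arrays. Every value of IL1B and TNF was under 5.52, the lower quartile of mean level over all genes.

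Of 24 listed partners of the lipid-handling and lysosomal genes, 20 were measured. None rose in DT6 or D6, where 5 each had an unadjusted p under 0.05 in limma, as had 17.6% of all genes in DT6 and 16.4% in D6. In D2 1 rose, against 5.66% of all genes. It was NPC2, which moves cholesterol out of lysosomes (0.95 ± 0.25, adjusted p 0.0487). Their median differences from C were 0.23 in DT6, 0.15 in D6 and 0.17 in D2, against 0.55, 0.95 and 1.00 for the 12 lipid-handling and lysosomal members. CD36, a fatty acid and lipoprotein receptor that fat cells and vessels also express, had 10.56 and 11.25 in DT6, 10.26 and 9.85 in D6 and 10.49 and 10.12 in D2, against 11.05 and 11.04 in C. Both arrays of D6 and of D2 lay below C, but D6 against C did not pass (-0.99 ± 0.24, adjusted p 0.0845).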

How the data were processed

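The values used were those the authors deposited in 1 table, 22708 probe sets by 8 arrays, on a log2 scale as judged from their range; how they were summarised and normalised, and the base, is not given in the sources used here. Arrays have no sequencing depth, and 2 arrays per group limit the precision. Probe sets with 1 gene symbol in the platform annotation were kept (16545), and of 516 genes with several the probe set with the highest mean was taken. Testing of the 15947 genes used limma (version 3.58.1, R version 4.3.3; lmFit on 4 group means, eBayes with a variance trend, 4 residual degrees of freedom, two-sided, adjusted p under 0.05). The script was tested on simulated data. The genes and lists were chosen with earlier results of these data known. All measured genes were named, with array values for the 12 with the smallest adjusted p against C and for SLC11A1; from other lists up to 4 past the threshold, or else up to 2, were taken. Array values and differences of other genes were added after they had been seen. Alternatives changed the variance trend, normalization, dim-gene filter, probe set choice, array weights, samples fitted, replicate block and arrays. No coordinates or sequences are reported.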

Additional observations from a re-analysis of the deposited data

How the results depend on the processing

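Differences kept their direction in all alternatives for every member called, and 0 calls reversed. Leaving out 1 array gave 3 to 25 genes in D2 against C (19 as reported), 0 to 23 in D6 against C (11), 1 to 20 in DT6 against C (7), 2 to 26 for the mean of the defect groups (21), 0 to 2 in D6 against D2 (1) and 0 to 2 in DT6 against D6 (0). A group left with 1 array was assumed to vary like the others. Over all genes these fits called 310 to 1940 genes in D2, 0 to 683 in D6, 127 to 719 in DT6 and 90 to 1863 for the mean of the defect groups. In D6 against C the count was 7 without a variance trend, 17 with quantile normalization, 20 with array weights and 18 with D6 and C alone. Array weights gave 4 in DT6 against C and 2 in D6 against D2, where SIGLEC1 joined SLC11A1 (adjusted p 0.0267). Leaving out D2 array 2 and D6 array 1 together, chosen after seeing the data, gave 4 in D2, 1 in D6 and 0 in D6 against D2. Whether arrays of the same replicate number came from the same animal is not stated. Deviations from group means correlated between groups with r of -0.26 to 0.19. With 2 arrays per group, and tissue mixes that differed within groups, these correlations cannot show whether arrays were paired. With the number as a replicate block the counts were 19 in D2, 8 in D6, 8 in DT6, 21 for the mean of the defect groups, 1 in D6 against D2 and 0 in DT6 against D6. The fits that leave arrays out also hold fewer arrays, and the causes of these changes were not tested.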
